A study of Rattus norvegicus with 6 samples.

Results

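The nuclear genes that encode the proteins of the mitochondrial ribosome were followed in rat kidney epithelial cells exposed to streptozotocin (STZ). They were taken as the rows of the deposited count table whose gene symbol starts with Mrpl or Mrps followed by a number, which gave 72 of 18930 rows and 71 symbols, since Mrpl42 stands on 2 rows. RNA was sequenced from NRK-52E cells, an established epithelial line from normal rat kidney with the genotype given as WT, in 3 samples labelled Control, which received vehicle, and 3 samples kept with STZ at 10 mM over 24 h. STZ is a DNA-alkylating nitrosourea linked to a glucose-like sugar. Neither the labels nor the methods say whether the 3 samples of a group were separate cultures, so p-values measure only the spread between these samples, which may be technical.

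The mitochondrial ribosome translates the messenger RNAs encoded by mitochondrial DNA, all of which specify subunits of the respiratory chain and ATP synthase. Its ribosomal RNAs come from mitochondrial DNA, while its proteins are encoded in the nucleus, made in the cytosol and imported. Many of these proteins have a counterpart in the bacterial ribosome, and others were added in the mitochondrial lineage. Kidney epithelium relies heavily on oxidative metabolism, for which this ribosome is needed.

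Total counts lay between 10430924 and 15191349 per sample, and edgeR's TMM scaling factors between 0.988 and 1.02. No pair of replicates agreed within counting noise (chi-square over its degrees of freedom at least 1.85). Among epithelial markers, Krt8 and Ezr had at least 8250 reads in every sample, while Cdh1 had 16 to 35 and Krt18 at most 3. The epithelial markers summed to 1883 to 1986 CPM (counts scaled to one common library total) in Control and 2402 to 2461 in STZ, with Krt8 higher (log2 fold change 0.48) and Cdh1 lower (-0.69) at an adjusted p-value under 0.05. The 6 proximal tubule markers summed to 9.90 to 16.5 CPM in Control and 5.74 to 6.83 in STZ, mostly from Aqp1, while Lrp2, Cubn, Slc34a1, Slc5a2 and Slc2a2 each had 0 to 10 reads. The 6 fibroblast markers in the table summed to 99.6 to 111 CPM in Control and 56.1 to 66.7 in STZ, with Col3a1, Col1a1 and Pdgfrb detected. The 4 endothelial markers summed to 0.455 to 0.754 and 0.800 to 1.13 CPM, and the 3 immune markers to at most 2.40 CPM in any sample. The part of these differences in the values below was not tested.

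Mitochondrial ribosomal protein transcripts changed little with STZ, and those that changed were more often lower than higher. Of the 72 rows, 70 passed edgeR's filter on low counts. Among these 70, 25 were lower and 9 were higher in STZ than in Control at an adjusted p-value below 0.05, and 36 did not pass that threshold. The p-values came from the quasi-likelihood test of edgeR, adjusted by the Benjamini-Hochberg method over 11870 genes. Over all genes tested, 25.1% were lower and 25.9% were higher by the same rule, 50.9% in either direction. For the 70 members these shares were 35.7%, 12.9% and 48.6%, so the share of members called in either direction was near the background. The members' log2 fold changes had a median of -0.083 and ran from -0.68 to 0.32, beside a median of -0.0055 over all genes. Fewer cells of a given kind and less RNA per cell cannot be told apart in these bulk samples.

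None of the 70 members reached the study's second threshold, an absolute log2 fold change over 1, which 3.37% of all genes tested passed together with the adjusted p-value (2.26% higher and 1.11% lower). This count of 0 was the same with edgeR's likelihood ratio test, DESeq2 and limma-voom, although 38 of the 70 had an unadjusted p under 0.05 in edgeR's quasi-likelihood test, beside 6636 of all 11870 genes. The depth was sufficient to bound the changes. For all 70 members the 95% interval of the log2 fold change excluded a doubling and a halving, as it did for 90.6% of all genes tested. In 27 of the 70 the interval lay within a 1.2-fold change in either direction, as for 32.4% of all genes tested. When edgeR's glmTreat was used to ask for a change beyond 1.2-fold, 4 members were lower and 0 were higher, against 7.26% and 9.19% of all genes tested. The 4 lower ones were Mrpl58, Mrpl48, Mrps27 and Mrps28.

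**Figure D1:**
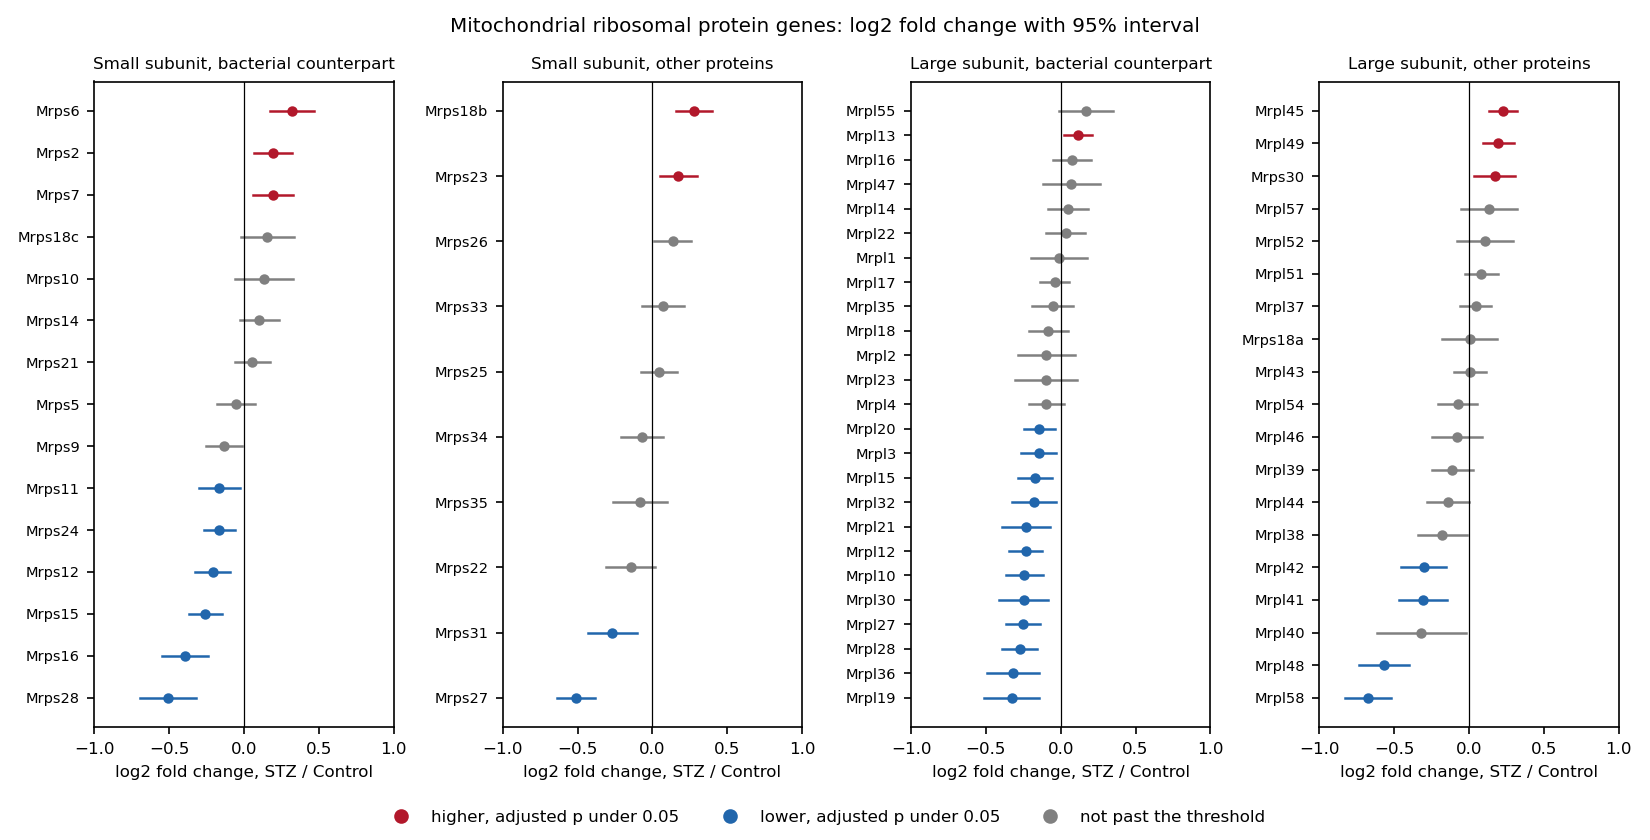
Each point is the log2 fold change (STZ against Control, x axis) of 1 of 69 tested genes of the 2 ribosomal subunits, with its 95% interval as a bar, and colour gives the call at an adjusted p-value under 0.05. Every interval lies between -1 and 1, and the 12 lower genes among the large subunit proteins with a bacterial counterpart stand beside 1 higher gene.

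Levels summed over members moved in the same narrow range. The 72 rows took 0.292%, 0.298% and 0.288% of the reads in Control and 0.276%, 0.271% and 0.275% in STZ, so the groups did not overlap. After TMM scaling the sums were 2875, 2953 and 2859.8 CPM in Control and 2792, 2749 and 2783 CPM in STZ. The large subunit genes summed to 1852, 1899 and 1854 CPM in Control and 1792, 1761 and 1788 CPM in STZ, and all 3 STZ samples lay below all Control samples. The small subunit genes summed to 996, 1028 and 983 CPM in Control and 978, 968 and 974 CPM in STZ, a smaller gap between the groups that also left them apart.

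Split by lineage, the lower calls were most numerous among proteins with a bacterial counterpart. Of 25 such large subunit genes tested, 12 were lower and 1 was higher, with a median log2 fold change of -0.097. Of 15 small subunit genes of this kind, 6 were lower and 3 higher, with a median of -0.055. Among the other proteins, listed here as without a direct bacterial counterpart (Mrps18a and Mrps18b included), 4 were lower and 3 higher of 19 in the large subunit (median -0.076), and 2 were lower and 2 higher of 10 in the small subunit (median -0.013). Leaving out 1 sample gave 8 to 10 lower in the conserved large subunit group, 4 to 6 in the conserved small subunit group, and 3 to 6 and 2 in the other large and small subunit groups. The higher counts ran from 0 to 1, 2 to 4, 2 to 3 and 1 to 3 in the same order. With all 6 samples, 25.1% of all genes tested were lower and 25.9% were higher. Of the 40 genes with a bacterial counterpart, 45% were lower and 10% higher. Of the 29 other genes, 20.7% were lower and 17.2% higher, both below the shares of all genes tested. The 3 largest falls were nevertheless in the other genes. Beyond 1.2-fold by glmTreat, 1 of the 40 was lower (Mrps28) and 3 of the 29 (Mrpl58, Mrpl48 and Mrps27), against 7.26% of all genes tested. With scaling by library size only, 12 conserved and 7 other large subunit genes were lower, beside 29.4% of all genes tested. In the small subunit these counts were 7 and 2. The difference between these 4 groups of genes was not tested. Their summed levels were 1121, 1129 and 1109 CPM in Control and 1064, 1026 and 1045 CPM in STZ for the conserved large subunit genes and 730.4, 769.8 and 746 CPM in Control and 728, 736 and 743 CPM in STZ for the other genes of the same subunit. In the first of these sums the groups did not overlap, and in the second they did.

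**Figure D2:**
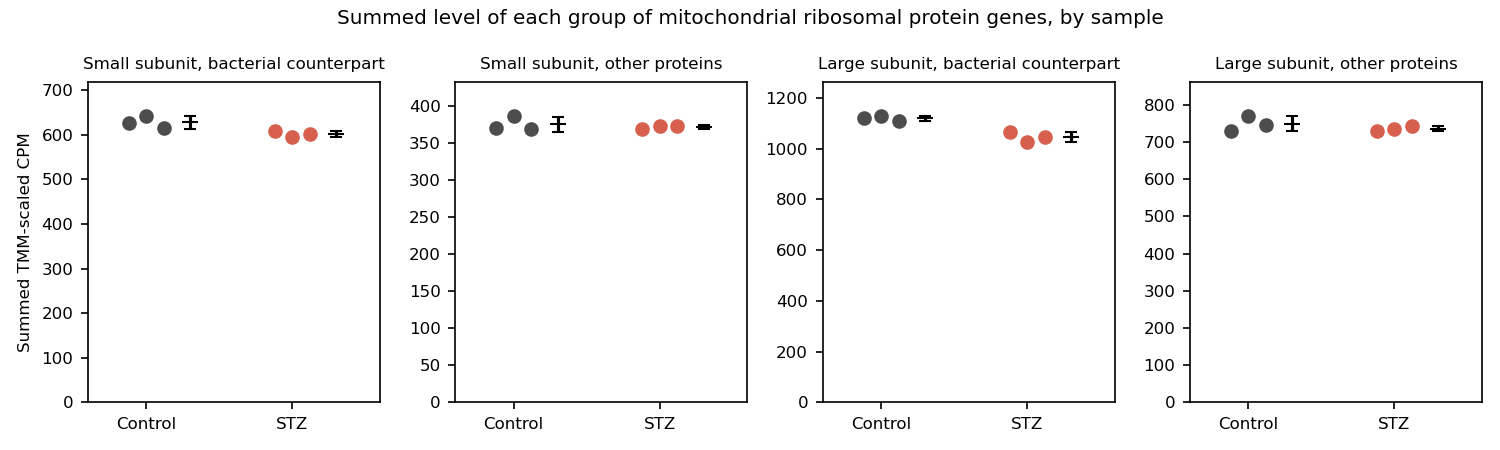
Points are the summed TMM-scaled CPM (y axis, from 0) of each of the 4 groups of genes in each of the 3 Control and 3 STZ samples, and the bar beside them is the mean ± SD. Control and STZ are apart in both groups with a bacterial counterpart and overlap in both groups of other proteins.

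The largest fall was that of Mrpl58, which encodes a peptidyl-tRNA hydrolase built into the large subunit that frees peptides from stalled ribosomes. It had 385, 440.3 and 418 normalized counts in Control and 266, 255 and 257 in STZ. The STZ samples lay close together and far below every Control sample (log2 fold change -0.68, standard error 0.076, adjusted p = 6.1e-10), a fall of 37.5%. Mrpl48, a mitochondrial protein of the large subunit's central protuberance, followed with 349, 366 and 385 normalized counts in Control and 267, 219.5 and 252 in STZ. Its groups were likewise apart (log2 fold change -0.57, standard error 0.082, adjusted p = 1.4e-07). Mrps27, an RNA-binding pentatricopeptide repeat protein of the small subunit, had 655, 668 and 617 normalized counts in Control and 468, 462 and 431 in STZ. Every STZ sample was lower than every Control sample, by 29.9% between the fitted group levels (log2 fold change -0.51, standard error 0.062, adjusted p = 3.8e-09). Mrps28, the mitochondrial form of bacterial protein S1, had 264, 269 and 241 normalized counts in Control and 195, 176 and 170.3 in STZ, again with no overlap (log2 fold change -0.51, standard error 0.093, adjusted p = 1.3e-05). In the current rat annotation the span of Mrpl48 overlaps that of Rab6a on the other strand. Rab6a was higher, at 0.11 on the log2 scale, opposite in sign to Mrpl48. Whether featureCounts used strand is not given in the sources used here, and such reads may not be fully separated. The same limit holds for other members. Of the 57 found in that annotation, 15 overlap another gene, among them Mrpl36, Mrpl27 and Mrpl10.

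The bases before the start are shown for Mrpl58, Mrpl48 and Mrps27, because these genes fell the most and share a short run of letters there. The search covered 4 motifs on both strands, none of which contains another. These were CCGGAAG, the core bound by ETS factors such as GABP, that of NRF-1 (GCGCA and GCGC with any 1 base between them), AAGATGGC of YY1 and CACGTG, the E-box. RefSeq's GRCr8 promoter table (250 bases before to 50 after each start) held 57 of the 71 symbols, and Mrps28 was not among the 57. The stretches are from chr10:101145192-101145341 (plus strand), chr1:164351377-164351526 (minus strand) and chr2:32474115-32474203 (plus strand), end at the base before the start, and have motif matches in capitals. That of Mrps27 is cut where the span of the neighbouring gene Ptcd2 begins.
Mrpl58: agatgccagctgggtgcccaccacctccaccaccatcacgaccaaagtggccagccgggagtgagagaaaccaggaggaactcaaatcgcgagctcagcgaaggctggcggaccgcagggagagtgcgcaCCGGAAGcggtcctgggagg
Mrpl48: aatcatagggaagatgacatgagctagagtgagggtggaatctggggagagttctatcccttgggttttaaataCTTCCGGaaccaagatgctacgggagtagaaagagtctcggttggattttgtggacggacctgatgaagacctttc
Mrps27: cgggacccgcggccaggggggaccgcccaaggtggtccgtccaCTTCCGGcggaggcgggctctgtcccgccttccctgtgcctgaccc

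Each of the 3 stretches holds 1 ETS match. In the windows of 300 bases, ETS letters were present in 19 of the 57 members (33.3%), in 8.75% of all 33469 promoters and in 18.4% of the 9717 promoters of genes tested here. By call, they were in 9 of 19 members that were lower, 1 of 8 that were higher and 9 of 29 that did not pass the threshold. NRF-1 letters were in 9 of the 57 members (15.8%), against 4.25% of all promoters and 10.3% of those of genes tested. E-box letters were in 6 (10.5%), against 6.42% and 9.47%. Split by call, NRF-1 letters were in 2 of 19 lower members, 2 of 8 higher and 5 of 29 not past the threshold. E-box letters were in 2, 1 and 3 of the same groups. A match is only a run of letters and not a bound site, and these counts carry no test.

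**Figure D3:**
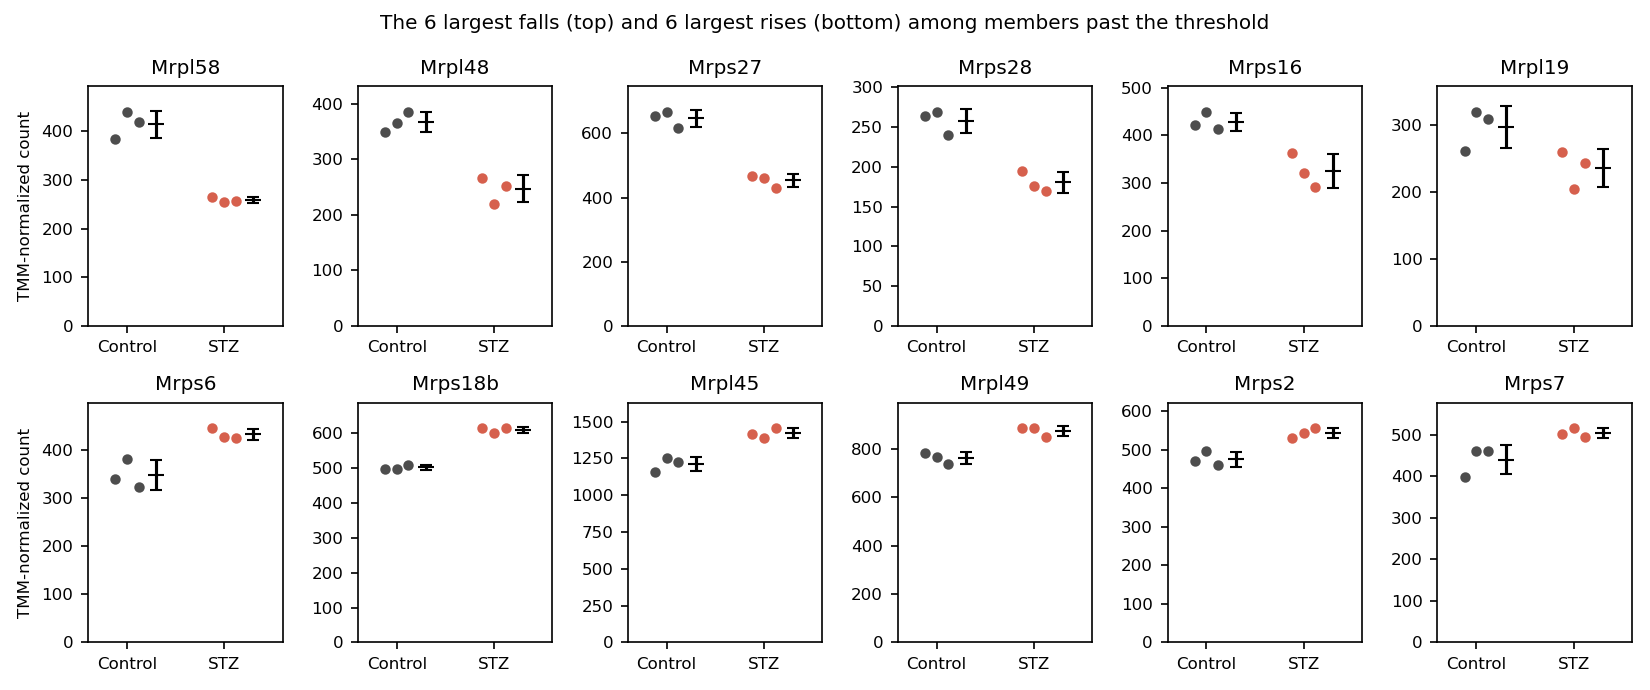
Points are TMM-normalized counts (y axis, from 0) in the 3 Control and 3 STZ samples for the 6 largest falls (top) and the 6 largest rises (bottom) among members past the adjusted p-value threshold, and the bars are mean ± SD. In each of the 12 panels the Control and STZ points do not overlap.

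Among the other small subunit proteins that fell, Mrps16 had 422, 449 and 413 normalized counts in Control and 362, 321 and 292 in STZ (log2 fold change -0.40, standard error 0.076, adjusted p = 2.8e-05). Mrps15 fell by 16.5%, with 824, 856 and 836 normalized counts in Control and 733, 689 and 679 in STZ (log2 fold change -0.26, standard error 0.054, adjusted p = 9.1e-05). Both genes had separate groups, and the STZ samples of Mrps16 were spread more widely than the Control samples. Mrps12, which lies near the site where codons are read, had 732, 687 and 728 normalized counts in Control and 646, 639 and 576 in STZ, a log2 fold change of -0.21 (adjusted p = 0.00263). Mrps24 had the most reads of the small subunit members, a count that is not divided by transcript length. It had 1101, 1090.0 and 1018 normalized counts in Control and 902, 1002 and 955 in STZ (log2 fold change -0.17, standard error 0.051, adjusted p = 0.00611). Without STZ replicate 1 this call was lost (adjusted p = 0.0699). Mrps31 fell in the set without a direct bacterial counterpart, from 325 ± 17.6 normalized counts in Control to 269 ± 14.9 in STZ (SD, n = 3 in each group), with a log2 fold change of -0.27.

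In the large subunit, Mrpl19, Mrpl36 and Mrpl28 had the largest falls among proteins with a bacterial counterpart. Mrpl19 had 262, 320.3 and 309.6 normalized counts in Control and 259.7, 205 and 243 in STZ, and 1 Control sample lay just above the highest STZ sample (log2 fold change -0.33, standard error 0.091, adjusted p = 0.00249). The log2 fold change was -0.32 for Mrpl36 and -0.27 for Mrpl28. Mrpl28 had 703, 706 and 715 normalized counts in Control and 594, 548 and 610.4 in STZ, with the Control samples close to each other and the groups apart. The stalk proteins Mrpl10 and Mrpl12, which recruit translation factors to the ribosome, fell by similar amounts. Mrpl12 had 821, 955 and 914 normalized counts in Control and 779.9, 763 and 747 in STZ (log2 fold change -0.23, standard error 0.055, adjusted p = 4.5e-04), and Mrpl10 had 652, 609 and 649 normalized counts in Control and 531, 576 and 511 in STZ (log2 fold change -0.25, standard error 0.061, adjusted p = 8.6e-04). In both stalk genes every STZ sample was below every Control sample. Mrpl27, Mrpl30, Mrpl21, Mrpl32 and Mrpl15 also fell, with log2 fold changes from -0.25 to -0.17. The stalk-base gene Mrpl11 had no row under that symbol and was not analysed here. Of 77 subunit genes listed, 7 had no such row, and 2871 rows carry an Ensembl identifier in place of a symbol. Smaller falls, each lost in DESeq2's Wald test and in several fits that left out 1 sample, were called for Mrpl3, a protein near the peptidyl transferase centre, and for Mrpl20, with log2 fold changes of -0.15 (adjusted p = 0.0337) and -0.14 (adjusted p = 0.0216). The groups of Mrpl20 overlapped.

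Mrpl41 and Mrpl42 were the remaining large subunit genes that fell. Mrpl41, which has been linked to growth arrest through p53, had 415, 519.5 and 403 normalized counts in Control and 347, 344 and 383 in STZ (log2 fold change -0.31, standard error 0.079, adjusted p = 0.00110). Its Control samples were uneven, and without Control replicate 2, the highest, the log2 fold change was -0.19 and the adjusted p 0.0547. The row of Mrpl42 that was tested had a log2 fold change of -0.30 (adjusted p = 7.5e-04). The other row of that symbol had at most 1 read per sample and did not pass the filter. Mrpl40 had the fewest reads of the tested large subunit genes, with 109, 101 and 79.6 normalized counts in Control and 79.6, 76.8 and 73.9 in STZ, and did not pass the threshold (log2 fold change -0.32, standard error 0.15, adjusted p = 0.0678). It passed without Control replicate 3 (-0.45, adjusted p = 0.0162) and with scaling by library size only (-0.35, adjusted p = 0.0431). Its 95% interval was -0.62 to -0.021, the widest of the members.

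The 9 rises were small. Mrps6, the mitochondrial form of bacterial S6, rose the most, with 340.3, 381 and 322 normalized counts in Control and 445, 427 and 425 in STZ (log2 fold change 0.32, standard error 0.073, adjusted p = 3.1e-04), an increase of 24.6%. In the annotation it overlaps Slc5a3, the sodium-dependent myo-inositol transporter, on the same strand. Slc5a3 had a log2 fold change of 0.25 (adjusted p = 0.0829), so the reads of this pair may not be fully separated. Mrps18b had 499, 498 and 509.6 normalized counts in Control and 614, 600.2 and 614 in STZ, with little spread in either group (log2 fold change 0.28, standard error 0.060, adjusted p = 1.4e-04). Mrpl45, which holds the ribosome at the inner membrane near the peptide exit, had 1159, 1252 and 1228 normalized counts in Control and 1419.6, 1389 and 1456 in STZ (log2 fold change 0.23, standard error 0.046, adjusted p = 6.1e-05). Mrpl49 had 784, 769 and 738 normalized counts in Control and 887, 886 and 850.4 in STZ (log2 fold change 0.20, standard error 0.053, adjusted p = 0.00180). Its span overlaps Syvn1 on the other strand, which had a log2 fold change of 0.22. In each of these 4 genes all STZ samples were above all Control samples.

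Mrps2, Mrps7, Mrps23, Mrps30 and Mrpl13 were higher by less than 15%. Their log2 fold changes were 0.20 for Mrps2, 0.19 for Mrps7, 0.17 for Mrps23, 0.17 for Mrps30 and 0.12 for Mrpl13. Mrps30 is counted here with the large subunit in spite of its name. The calls of Mrps7, Mrps23, Mrps30 and Mrpl13 were lost with DESeq2's Wald test and in at least 1 fit that left out a sample, such as that without Control replicate 1 (adjusted p between 0.0559 and 0.141). Mrpl13 had the most reads of the tested large subunit members, 1421, 1499.7 and 1381 normalized counts in Control and 1577, 1483 and 1596 in STZ, with groups that overlapped. Its rise did not pass the threshold when libraries were scaled by total count only (log2 fold change 0.083, adjusted p = 0.126). The same scaling left 6 members higher and 29 lower, beside 22.4% and 29.4% of all genes tested.

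YY1 letters were found in 14 of the 57 members (24.6%), in 3.17% of all promoters and in 5.51% of those of genes tested. By call, they were in 5 of 8 higher members, 5 of 19 lower and 4 of 29 that did not pass the threshold, counts that again carry no test. The 5 windows of the higher members are shown with the letters AAGATGGC in capitals and 10 bases on each side. In GRCr8 they lie at chr11:44778654-44778681 (plus strand) for Mrps6, chr20:2843024-2843051 (plus strand) for Mrps18b, chr1:212779294-212779321 (minus strand) for Mrpl49, chr10:101342638-101342665 (plus strand) for Mrps7 and chr2:52195869-52195896 (minus strand) for Mrps30.
Mrps6: agattccatcAAGATGGCagccaagacc
Mrps18b: gatgtgcgacAAGATGGCtgcctccttg
Mrpl49: tggaggagcaAAGATGGCagcaaatgta
Mrps7: gatagcggccAAGATGGCtgcccccgca
Mrps30: gcggaggacaAAGATGGCggctgccagg

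All 5 matches are in the forward direction, and the first motif base lies between 3 bases before and 29 bases after the start. Among the 5 lower members with these letters, those of Mrps27 and Mrpl42 are also forward and begin 30 and 20 bases after the start, those of Mrpl36 and Mrpl32 are on the reverse strand, and that of Mrpl48 is forward and farther upstream. The motif contains ATG, so a match that reaches or follows the start, as in all 5 higher members, may also hold the start codon, which was not examined.

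Mrps18a, Mrps18b and Mrps18c are 3 relatives of a single bacterial protein, S18, that sit at different places in the mitochondrial ribosome. Mrps18a belongs to the large subunit in spite of its name and had 215, 226 and 215 normalized counts in Control and 212, 233 and 216 in STZ, with groups that overlapped and a log2 fold change of 0.0045 (95% interval -0.18 to 0.19). The sign of this value turned to negative with the upper quartile and library size scalings. Mrps18c, in the small subunit, had 305, 289 and 302 normalized counts in Control and 328, 276 and 385 in STZ, and its STZ samples ranged from below to above the Control samples. Its log2 fold change was 0.15 (adjusted p = 0.141, 95% interval -0.022 to 0.33), and it was 0.024 without STZ replicate 3 (adjusted p = 0.860) and without STZ replicate 2 0.26 (adjusted p = 0.0146). Of the 3, only Mrps18b passed the threshold, and the difference between the relatives was not tested.

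The remaining members gave the following values. Mrps36 matches the name but is now placed in the oxoglutarate dehydrogenase complex, and it fell from 317 ± 30.0 normalized counts in Control to 261 ± 17.6 in STZ (SD, n = 3 in each group), a log2 fold change of -0.27 (adjusted p = 0.00711). Mrps10, the tested small subunit member with the fewest reads, had normalized counts of 192 ± 3.56 in Control and 209 ± 15.9 in STZ (SD, n = 3 in each group), with groups apart but not past the threshold (log2 fold change 0.13, adjusted p = 0.259, and 0.063 without STZ replicate 3). The 36 tested members that did not pass the threshold had log2 fold changes from -0.32 in Mrpl40 to 0.17 in Mrpl55. Mrps17 had 0 to 7 reads per sample and did not pass the filter. Over all 70 tested members, the groups did not overlap in 29 that were lower and 12 that were higher in STZ, against 27.7% and 28.6% of all genes tested.

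The other genes of mitochondrial translation were taken from lists. Over all genes tested, 25.1% were lower and 25.9% were higher, the shares beside which the counts of each list stand. Of the 5 proteins of the mitochondrial ribosome with other symbols, Dap3, Chchd1, Ptcd3 and Gadd45gip1 did not pass the threshold, with log2 fold changes from -0.12 to 0.030. Aurkaip1, a small subunit protein, was higher, with 2687, 2659 and 2558 normalized counts in Control and 2990.2, 3085 and 2930.0 in STZ (log2 fold change 0.19, standard error 0.040, adjusted p = 1.1e-04). Of 26 genes for assembly of the ribosome and modification of its RNA, 3 were higher (11.5%) and 5 lower (19.2%), with a median of -0.067. Both shares were below those of all genes tested. Mterf3, which acts in mitochondrial transcription and ribosome assembly, had 1188, 1128 and 1145 normalized counts in Control and 1557, 1529 and 1619 in STZ and the smallest p of the list (log2 fold change 0.44, standard error 0.046, adjusted p = 6.1e-11). Mrm3 (0.47), which methylates the large ribosomal RNA, and the assembly factor gene Mpv17l2 (0.44) were also higher, while Rcc1l (-0.65) and the GTPase gene Gtpbp10 (-0.60), both of large subunit assembly, and Mettl15 (-0.63), which methylates the small ribosomal RNA, were lower on the log2 scale. These 5 genes after Mterf3 were named after their values were seen.

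Of 17 factors of mitochondrial translation, 5 were lower (29.4%, near the 25.1% of all genes tested) and 0 were higher (against 25.9%). The median log2 fold change was -0.099, and 6 of the 17 had an unadjusted p under 0.05, 5 of them lower and 1 higher. The 5 were Guf1, the elongation factor Tufm, the initiation factor Mtif2, the recycling factor Mrrf and Gfm1. Guf1, a translation GTPase, had 385, 388 and 354 normalized counts in Control and 291, 293 and 278 in STZ (log2 fold change -0.38, standard error 0.076, adjusted p = 4.0e-05). Its groups were apart. Of 15 mitochondrial aminoacyl-tRNA synthetases, 7 were lower (46.7%) and 0 higher, 9 with an unadjusted p under 0.05, and the median was -0.23. Cars2, the cysteine enzyme, had 246, 252 and 228 normalized counts in Control and 131, 138 and 154 in STZ (log2 fold change -0.77, standard error 0.10, adjusted p = 1.6e-08), a larger fall than that of any tested member. DESeq2's Wald test called 4 of the factors and 5 of the synthetases lower, and limma-voom 5 and 7. Both called 0 of the factors and 0 of the synthetases higher. With scaling by the upper quartile, 5 factors and 9 synthetases were lower.

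The messenger RNAs that this ribosome reads did not move as one. Of 13 encoded by mitochondrial DNA, 2 were higher (15.4%) and 8 lower (61.5%), and the median was -0.16. Over all genes tested, 25.9% were higher and 25.1% lower. Mt-co1 rose, with 175073, 185250.2 and 171706 normalized counts in Control and 219672, 224697 and 235483 in STZ (log2 fold change 0.35, standard error 0.037, adjusted p = 6.8e-11), and had the most reads of the 13. The 13 together summed to 37734, 40936 and 37782 CPM in Control and 39641, 41592 and 42897 CPM in STZ, so their total overlapped between the groups while 8 of the single transcripts were lower. DESeq2's Wald test called 5 of them lower. Several of these transcripts are cut from shared precursors or overlap, and the assignment of their reads was not tested. Of 12 genes of mitochondrial DNA transcription and replication, 2 were higher (16.7%) and 4 lower (33.3%). Polg, the mitochondrial DNA polymerase, had the smallest p, with 963, 1019 and 1050.2 normalized counts in Control and 833, 810.0 and 844 in STZ (log2 fold change -0.29, standard error 0.051, adjusted p = 9.0e-06). Tfam, which packages mitochondrial DNA and starts its transcription, was lower (log2 fold change -0.19, standard error 0.062, adjusted p = 0.0108). Without Control replicate 2, only 2 of the 12 were lower.

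Among nuclear regulators of mitochondrial genes, 4 of 8 tested were lower and 1 was higher, against 25.1% and 25.9% of all genes tested. Gabpa encodes the ETS subunit of GABP, whose binding at the members was not measured. Gabpa had 1150.0, 1238 and 1433 normalized counts in Control and 895, 914 and 948 in STZ (log2 fold change -0.47, standard error 0.056, adjusted p = 2.2e-09). All 3 STZ samples were below all Control samples. Of the other GABP genes listed, Gabpb2 was lower (log2 fold change -0.65, adjusted p = 3.9e-06). Gabpb1 did not pass the threshold (-0.019, adjusted p = 0.893). Nrf1, nuclear respiratory factor 1, had 733, 654 and 676 normalized counts in Control and 586, 553 and 589 in STZ (log2 fold change -0.25, standard error 0.059, adjusted p = 4.5e-04). Myc was also lower, with a log2 fold change of -0.33, and Yy1 did not pass the threshold (0.064, 95% interval -0.045 to 0.17). Esrra, an orphan nuclear receptor, was higher with few reads, with normalized counts of 20.8 ± 3.06 in Control and 41.4 ± 3.94 in STZ (SD, n = 3 in each group, adjusted p = 5.1e-04). Ppargc1a had at most 1 read per sample and was not tested.

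**Figure D4:**
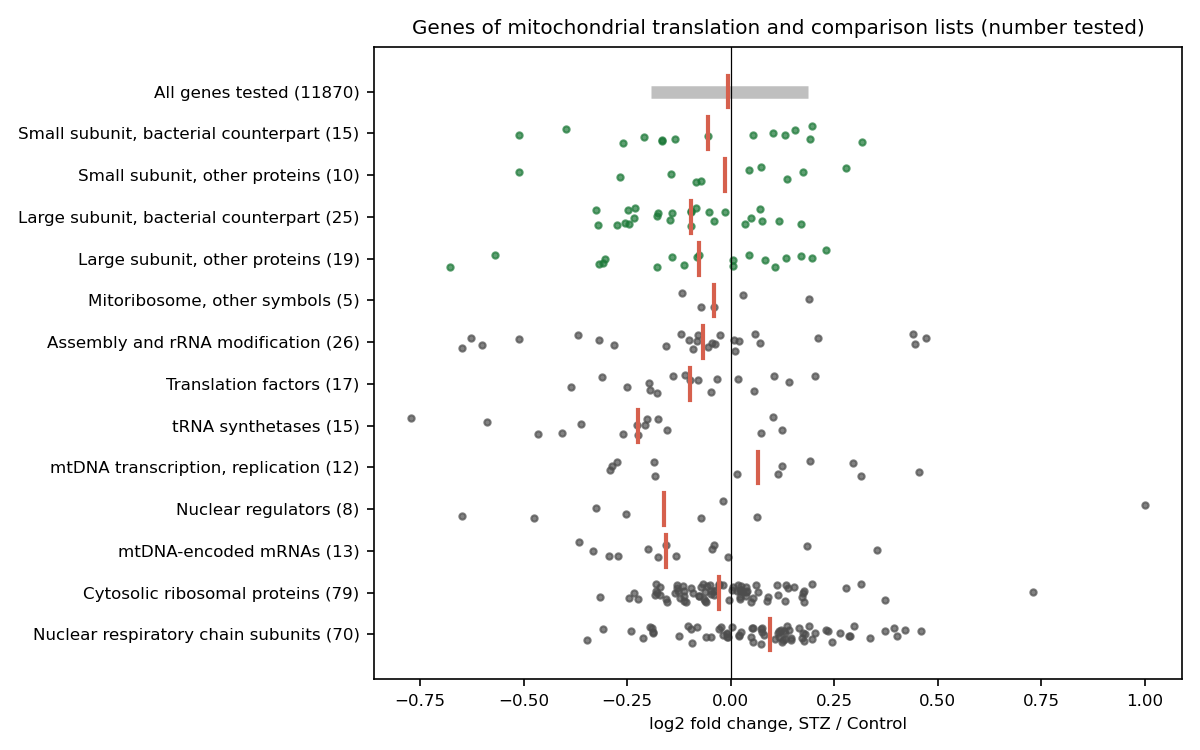
Each point is the log2 fold change (x axis, STZ against Control) of 1 tested gene in a list (y axis, number of genes in brackets), the vertical bar is the list's median, and the grey bar runs from the lower to the upper quartile of all 11870 genes tested. The medians of the 4 groups of mitochondrial ribosomal proteins lie between -0.097 and -0.013, and that of the nuclear respiratory chain subunits at 0.094.

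For comparison, the nuclear genes of the respiratory chain, most of which encode proteins assembled with the products of this ribosome, had more higher than lower calls. Of 70 tested, 30 were higher (42.9%) and 8 lower (11.4%), with a median of 0.094. The 70 mitochondrial ribosomal protein rows gave 9 and 25. With scaling by library size only, these counts were 21 and 13 for the respiratory chain and 6 and 29 for the ribosomal proteins. The proteins of the cytosolic ribosome gave 12 higher (15.2%) and 19 lower (24.1%) of 79 tested, with a median of -0.028. Over all genes tested, 25.9% were higher and 25.1% lower. The lower count for the cytosolic ribosome was 11 without Control replicate 2 and 29 with scaling by library size only. The smallest p of each list was that of Cox6c, a subunit of cytochrome c oxidase, at 0.39 on the log2 scale, and of Rps27l, a p53-induced relative of a ribosomal protein, at 0.73. The differences between these lists were not tested.

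Many genes for mitochondrial proteins start close to another gene on the opposite strand. Of the 57 members in the promoter table, 18 had a protein-coding gene starting within 1000 bases on the other strand. The share over all promoters was not counted. These 18 members form 17 pairs, and 1 pair consists of the members Mrps11 and Mrpl46. Their log2 fold changes were -0.17 and -0.081, of which only the first passed the threshold (adjusted p = 0.0378 and 0.434). In the other 16 pairs, 3 partners were lower and 1 was higher, against 25.1% and 25.9% of all genes tested. These partners were named after their values were seen. Ncapd2, a condensin subunit whose start lies 50 bases from that of Mrpl51, was lower (log2 fold change -0.41, standard error 0.041, adjusted p = 2.8e-11). Mrpl51 did not pass the threshold, at 0.083 (95% interval -0.030 to 0.20), an interval that does not reach the value of Ncapd2. Hira, a histone chaperone beside Mrpl40, was lower (log2 fold change -0.38, standard error 0.060, adjusted p = 8.4e-07), next to -0.32 for Mrpl40. Tcp1, a chaperonin subunit beside Mrpl18, was lower (log2 fold change -0.21, standard error 0.046, adjusted p = 1.3e-04), with -0.083 for Mrpl18 (adjusted p = 0.284). Pnpla7 was higher (log2 fold change 0.39, standard error 0.13, adjusted p = 0.0103) where Mrpl41 was lower, the only pair in which both genes passed the threshold. Ptcd2, which borders the Mrps27 stretch shown above, did not pass the threshold (log2 fold change -0.20, standard error 0.11, adjusted p = 0.139).

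**Figure D5:**
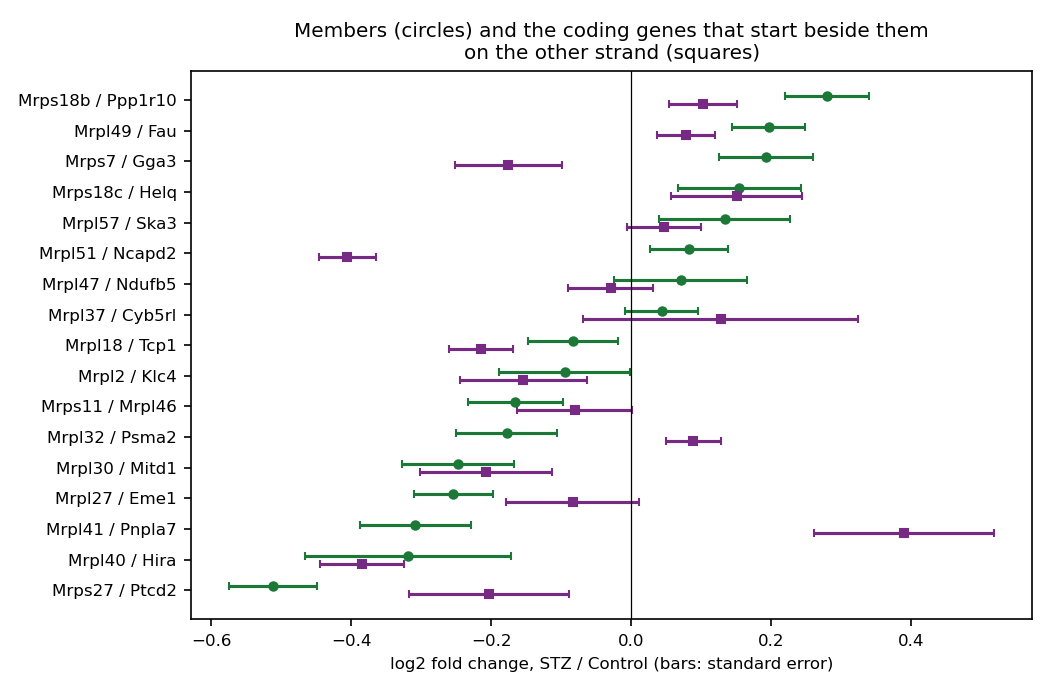
Log2 fold changes (x axis, STZ against Control) of members (circles) and of the protein-coding genes that start within 1000 bases of them on the other strand (squares) in 17 pairs, with standard errors as bars. In Mrpl51 and Ncapd2 the member lies at 0.083 and its neighbour at -0.41, and in Mrpl41 and Pnpla7 the values have opposite signs.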

How the data were processed

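RNA from 3 STZ and 3 Control samples of NRK-52E cells was sequenced with a stranded mRNA kit in single-end mode. Per the paper and the submitters' processing notes, alignment was to Rnor6 with STAR 2.7.10a, and the values the authors deposited are raw featureCounts counts of uniquely mapped reads, not normalized. The annotation and strand setting used are not given in the sources used here. Unique mapping removes reads shared with near-identical copies. Columns were assigned to samples by their titles, and 0 columns were left over.

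Counts were scaled by TMM, filtered by filterByExpr and compared by the quasi-likelihood test of edgeR 4.0.16 (R 4.3.3, limma 3.58.1) on the whole table, with Benjamini-Hochberg adjustment over 11870 genes. Calls used an adjusted p-value under 0.05, with or without the study's absolute log2 fold change over 1. Normalized counts are counts divided by TMM-scaled library size times their mean, and standard errors are the absolute log2 fold change over the square root of F. An exact permutation test of 1 gene cannot go below 0.1 (two-sided) in this design and was not used. Alternatives were other filters, scalings and tests (DESeq2 1.42.0 among them), a replicate block and each sample left out. The steps were tested on simulated counts.

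The members, gene lists, motifs and tests were chosen with earlier results of these data known. Members were named as the 3 highest and 3 lowest log2 fold changes in each of the 4 groups of genes (adjusted p-value under 0.05, mean of at least 50 normalized counts), the highest and lowest counts per subunit, 10 genes chosen by role, and those not tested. In each other list the gene with the smallest p and 7 regulators were named, and further names were chosen after their values were seen. Promoters and neighbours came from RefSeq tables of GRCr8, another build than the authors' Rnor6. Starts are those of the promoter table, and they matched the first base of the gene's span for 57.8% of promoters.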

Additional observations from a re-analysis of the deposited data

How the results depend on the processing

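The count of members lower with STZ, 25, stayed within 1.5 times in every alternative except edgeR's glmTreat against a 1.2-fold change, which gave 4, and ranged from 20 to 23 over the fits without 1 of the samples. The count of higher members, 9, was 5 with DESeq2's Wald test, 0 with glmTreat, and 6 to 9 over those fits. No alternative gave a member past both of the study's thresholds (0 to 0 over those fits). The median log2 fold change of the members, -0.083, was -0.12 with library size only, where that of all genes was -0.039, and -0.11 to -0.070 over the fits without 1 sample. Scaling by the upper quartile gave 7 higher and 27 lower. The share of member calls that were lower was 73.5% in the main analysis, 82.9% with library size only, 79.4% with the upper quartile and 80% with DESeq2.

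For 31 named members, 425 of 465 refits kept direction and side of the adjusted p-value threshold, 32 lost the call, 3 gained it and 5 changed sign, the cause of which was not tested. The sign changes were all in Mrps18a, at -0.014 with the upper quartile, -0.029 with library size only, and between -0.031 and 0.034 over the fits without 1 sample, 3 of which turned it. Of the 21 calls lost by leaving out 1 sample, those of Mrpl13 (adjusted p up to 0.138 without Control replicate 3), Mrps23 (up to 0.116 without STZ replicate 2), Mrps30 (up to 0.166 without STZ replicate 3), Mrpl3 (up to 0.206 without Control replicate 2) and Mrpl20 (up to 0.123 without STZ replicate 1) were lost in more than 1 fit. Mrps7 was lost without Control replicate 1 (0.141) and Mrps24 without STZ replicate 1 (0.0699) by edgeR's quasi-likelihood test.

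Replicates 1, 2 and 3 exist in both groups. For each number, the difference of the Control sample from its group mean was correlated with that of the STZ sample. The correlations across 9559 genes were 0.0301, -0.0243 and 0.126. These low values do not show whether samples with the same number were handled together. In the fit with the replicate block, 9 members were higher, 25 lower and 0 past both thresholds, and the median log2 fold change was -0.084. The block changed no call of a named member.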
